A study of Caenorhabditis elegans with 44 samples.

Results

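The mRNA of *vsra-1(tm1637); pals-22(pig26)* double mutants was compared with that of *pals-22(pig26)* single mutants in first-stage (L1) *C. elegans* larvae, with 3 libraries per genotype out of 44 in the series and 16724 of 22014 table entries abundant enough to test. Every animal in the comparison carried *otIs356*, a multicopy reporter integrated into chromosome V that makes the red fluorescent protein TagRFP in neuronal nuclei from the *rab-3* promoter. Both groups also lacked normal *pals-22*, through *pig26*, a deletion in its first exons that keeps the reading frame, so the groups differ in *vsra-1(tm1637)*, a deletion allele of the Argonaute gene *vsra-1*. *vsra-1(tm1637)* single mutants and wild type, 4 libraries each with the same transgene, gave the effect of *vsra-1(tm1637)* without *pals-22(pig26)*. Poly(A) RNA came from whole worms hatched overnight without food, and the labels do not say whether libraries of a genotype came from separate cultures, so p-values measure the spread between these libraries, which may be technical. The column names give 1 strain per genotype, so the effect of *vsra-1(tm1637)* cannot be told apart from any other difference between the 2 strains. The question was which mRNAs depend on VSRA-1 once *pals-22* is lost.

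Argonautes are proteins that hold a small RNA and use it to find matching transcripts. In *C. elegans*, RNA-dependent RNA polymerases copy targeted transcripts into secondary small RNAs (sRNAs), which are antisense to their gene and are loaded into worm-specific Argonautes. VSRA-1, also known as CSR-2, is a close relative of CSR-1, the Argonaute that binds sRNAs against most germline-expressed genes. PALS-22 and its partner PALS-25 form a switch. PALS-22 holds PALS-25 off, and without PALS-22 the intracellular pathogen response (IPR), a set of genes otherwise turned on by microsporidia and by the Orsay virus, is on in uninfected animals. The bZIP transcription factor ZIP-1 acts downstream of PALS-25. Animals without *pals-22* also silence repetitive transgenes more strongly.

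The libraries held 5479325, 15839335 and 20025578 estimated reads in the double mutant and 23923397, 14531628 and 17312464 in *pals-22(pig26)*. Values are given as CPM, counts scaled to a common library size of 1e+06, after TMM scaling between libraries, and because the deposited estimates were already divided by transcript length, CPM can be compared between genes. Spearman correlations between libraries were 0.944 to 0.946 within the double mutant, 0.942 to 0.976 between the genotypes and 0.971 to 0.980 within *pals-22(pig26)*. The double-mutant libraries differed from each other about equally. Their median absolute log2 difference was 0.362 between replicates 2 and 3, and 0.343 and 0.305 between replicate 1 and replicates 2 and 3. Double-mutant replicate 1, the shallowest library, stood apart in its yolk and sperm protein genes. The 6 yolk protein (*vit*) genes, which the adult intestine expresses, summed to 145, 11.05 and 3.01 CPM in the double mutant and to 6.78, 3.56 and 3.5004 CPM in *pals-22(pig26)*. The 31 major sperm protein (*msp*) genes summed to 56.7, 3.51 and 3.09 CPM in the double mutant and to 6.01, 8.57 and 5.71 CPM in *pals-22(pig26)*. In both sums replicate 1 of the double mutant was far above the other 5 libraries. The 8 sperm markers summed to 7.86, 1.81 and 1.93 CPM in the double mutant and to 1.25, 1.27 and 1.54 CPM in *pals-22(pig26)*, again highest in that replicate, and 3 of them (*spe-38*, *gsp-3* and *gsp-4*) were at or under 0.351 CPM in all 6 libraries. The part of this library in the results was not tested. Markers of neurons, muscle, pharynx, intestine and hypodermis were detected in every library.

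At an adjusted p under 0.1, 1 of 16724 genes was called (0.00598%), and that gene fell in the double mutant. 0 genes were called higher (edgeR quasi-likelihood, Benjamini-Hochberg over all genes). At an unadjusted p under 0.05, 641 genes passed (3.83%), 497 higher (2.97%) and 144 lower (0.861%). These counts depended on single libraries, with 296 higher without *pals-22(pig26)* replicate 2, 658 higher without double-mutant replicate 3 and 95 lower without *pals-22(pig26)* replicate 3. The median log2 fold change (log2FC, double mutant over *pals-22(pig26)*) was −0.0023 over all genes tested, with quartiles of −0.19 and 0.24. The 3 double-mutant libraries lay all above the 3 *pals-22(pig26)* libraries for 970 genes (5.8%) and all below them for 888 (5.31%). DESeq2 on the same libraries called 51 genes (0.305%), 36 higher (0.215%) and 15 lower (0.0897%), and these are described further on.

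**Figure D1:**
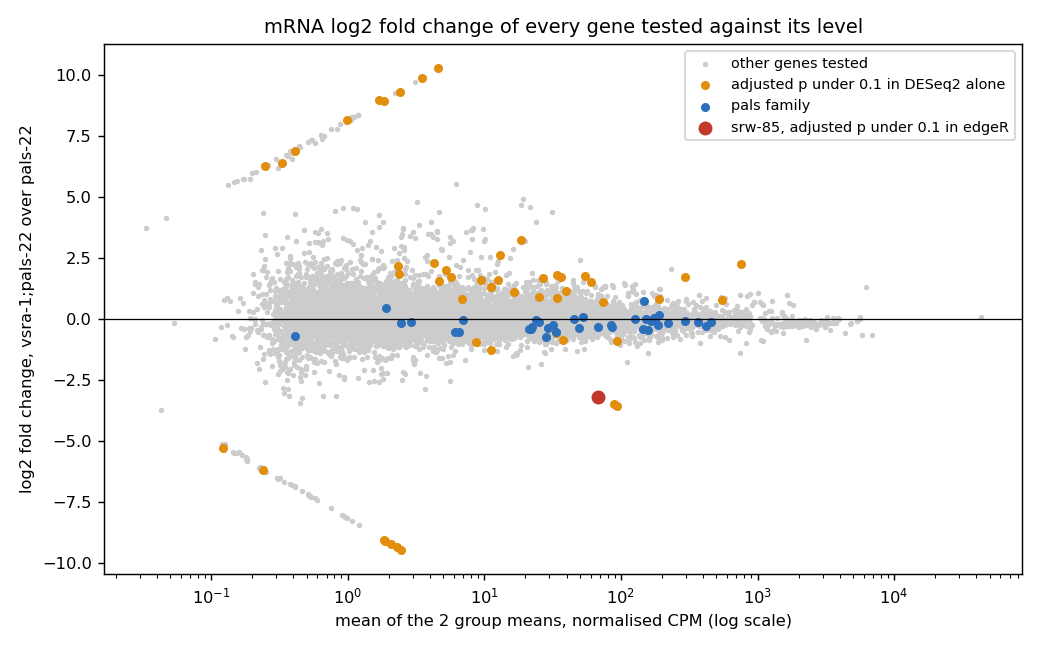
Each point is 1 of the 16724 genes tested, with its mean level in the 6 libraries (CPM, log axis) against its log2FC, *vsra-1;pals-22* over *pals-22*. *srw-85*, at a log2FC of −3.18, is the 1 gene called by edgeR, orange points are called by DESeq2 alone, and blue points mark the *pals* family.

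The gene that fell is *srw-85*, a member of the *srw* family of predicted seven-transmembrane chemoreceptors. Its mRNA stood at 15.7, 11.9 and 12.8 CPM in the double mutant and at 138, 131 and 95.3 CPM in *pals-22(pig26)*. The groups do not overlap, and the highest double-mutant library is well under the lowest *pals-22(pig26)* library. The log2FC was −3.18 (standard error 0.274, 95% interval −3.77 to −2.59, edgeR adjusted p = 0.000593), which is 9.05-fold lower in the double mutant. Without *pals-22(pig26)*, *srw-85* moved the other way. It was at 177, 175, 123 and 103.9 CPM in *vsra-1(tm1637)* and at 5.87, 5.45, 9.297 and 6.91 CPM in wild type, a log2FC of 4.40 (edgeR adjusted p = 3.96e-06). Among these *otIs356* strains, high levels were thus found in either single mutant, and low levels in wild type and in the double mutant. In N2 strains, which lack the transgene, *srw-85* was not among the 1526 genes called and more than 4-fold higher in *pals-22(pig26)* than in wild type. The reason for that difference between strains was not tested. The interaction, which is the effect of *vsra-1(tm1637)* with *pals-22(pig26)* minus its effect without, was −7.58 on the log2 scale (edgeR adjusted p = 7.06e-07).

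*srw-85* lies on chromosome V (WBcel235, 19429387 to 19431136, minus strand) and overlaps no annotated gene. Of its 1424 stretches of 31 bases, 20 (1.40%) also occur in transcripts of other genes, mostly C25F9.13. sRNA reads antisense to *srw-85* fell as well, to 0.119, 0.118 and 0 CPM in the double mutant against 1.63, 1.61 and 1.89 CPM in *pals-22(pig26)* (edgeR adjusted p = 0.00972). The double-mutant values rest on 3 reads or fewer per library, so the fitted log2FC of −4.39 is no bound. These sRNA levels were 5.28, 3.897, 3.16 and 2.74 CPM in *vsra-1(tm1637)* and 0.514, 0, 0.164 and 0.288 CPM in wild type. The nearest tested neighbour, C25F9.11 at 1.31 kb, was at 446, 439 and 290.0 CPM in the double mutant and at 474, 640.4 and 455 CPM in *pals-22(pig26)*. Within 200 kb on each side of *srw-85*, 82 other genes were tested for mRNA, of which 0 were called and 2 had an unadjusted p under 0.05 (2.44%). In the same window, 9 of 35 genes with measurable sRNA were called for sRNA (25.7%), beside 10% of all 8042 genes tested for sRNA. *otIs356* is also on chromosome V, at a position not given in the sources used here. Across the *srw* family, 15 of 109 members were abundant enough to test and *srw-85* alone was called, with a family median log2FC of −0.58 that was −0.96 without *pals-22(pig26)* replicate 3.

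**Figure D2:**
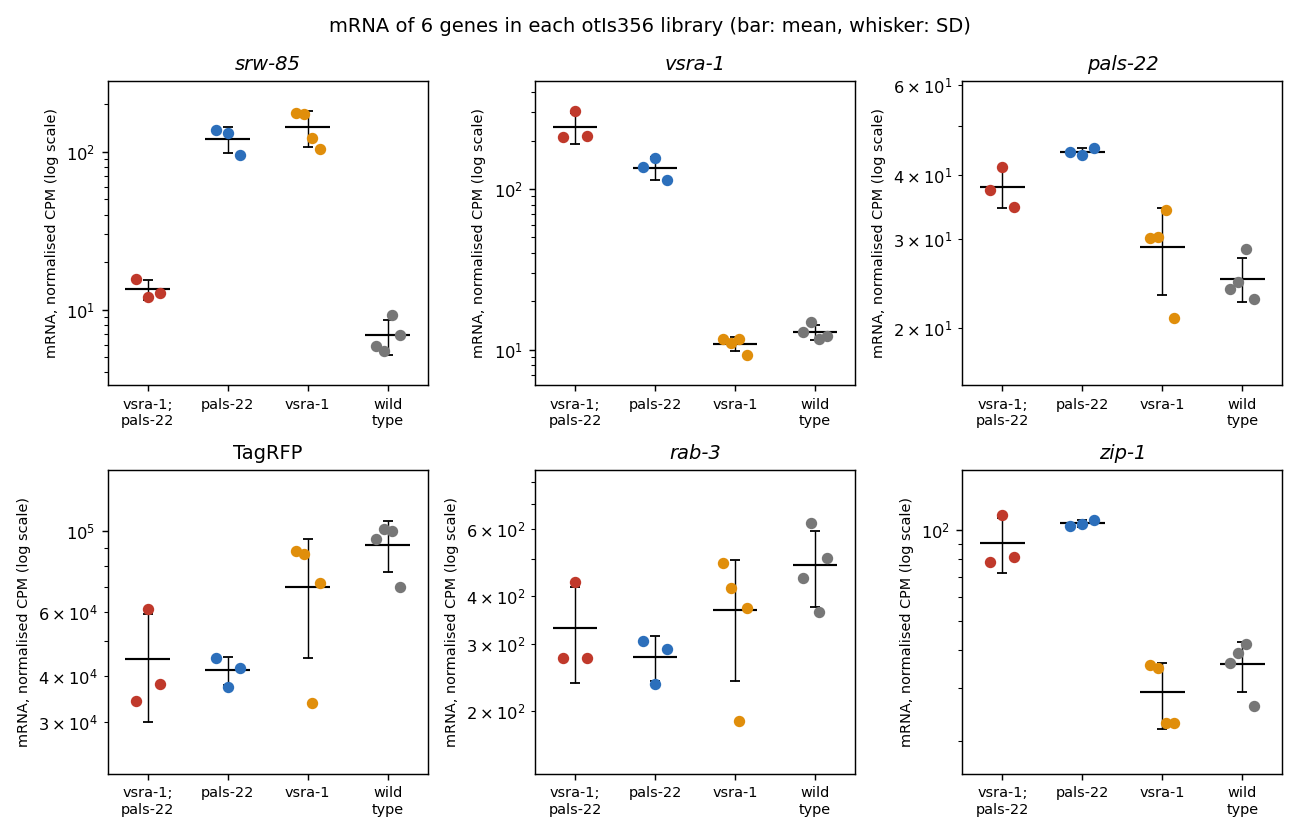
Levels of selected mRNAs (normalised CPM, log axes) in each library, with 1 point per library, a bar at the mean and a whisker for the SD of each genotype, in the order *vsra-1;pals-22*, *pals-22*, *vsra-1* and wild type. *srw-85* is at 11.9 to 15.7 CPM in the double mutant and at 95.3 to 138 CPM in *pals-22(pig26)*. *vsra-1* is at 212 to 304 CPM in the double mutant and at 113 to 157 CPM in *pals-22(pig26)*, and TagRFP, *rab-3* and *zip-1* overlap between these genotypes.

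*vsra-1* lies on chromosome I (9673664 to 9678557, WBcel235) and *pals-22* on chromosome III (132418 to 134401). The mutated genes were read as whole-gene totals, which include transcript outside a deletion and so check the labels only in part. *vsra-1* mRNA was not lost. It was at 212, 304 and 213 CPM in the double mutant and at 138, 157 and 113 CPM in *pals-22(pig26)*. All 3 double-mutant libraries exceeded all 3 *pals-22(pig26)* libraries, with a log2FC of 0.84 (95% interval 0.44 to 1.24, edgeR adjusted p = 0.912). DESeq2 called this difference (log2FC 0.83, adjusted p = 0.0329). In animals with intact *pals-22* the level was much lower, 11.7, 10.97, 11.7 and 9.32 CPM in *vsra-1(tm1637)* and 12.9, 14.8, 11.62 and 12.1 CPM in wild type. *vsra-1* thus had its high level in both genotypes that carry *pals-22(pig26)*. Its interaction value was 1.08 (edgeR adjusted p = 0.687). *pals-22* mRNA was at 37.5, 41.4 and 34.7 CPM in the double mutant and at 44.4, 43.8 and 45.3 CPM in *pals-22(pig26)* (log2FC −0.23, edgeR adjusted p = 1).

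For the TagRFP reporter of the repetitive transgene, no difference was detectable at this depth and number of libraries. TagRFP mRNA made up 37319, 66039 and 47503 RPM (scaled to the library total alone, without TMM factors) in the double mutant and 51156, 40560 and 47412 RPM in *pals-22(pig26)*. The ranges overlap, with both the lowest and the highest library in the double mutant. The difference was 0.08 on the log2 scale (two-sided exact permutation test, p = 0.8, where 0.1 is the smallest p that 3 against 3 libraries allow), and edgeR gave 0.10 with a 95% interval of −0.63 to 0.84. Without double-mutant replicate 2 the edgeR value was −0.20. Wild type was at 80593 to 88589 RPM and *vsra-1(tm1637)* at 31081 to 75433 RPM. sRNA reads antisense to TagRFP came to 309, 122 and 128 RPM in the double mutant and to 201, 218 and 175 RPM in *pals-22(pig26)* (two-sided exact permutation test, p = 0.7). Replicate 1 of the double mutant was the highest of these and its other libraries the lowest. Without that replicate the sRNA log2FC was −0.71 (edgeR adjusted p = 0.0105), against −0.21 (edgeR adjusted p = 0.743) with it.

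*rab-3*, the neuronal gene whose promoter drives TagRFP, was at 275, 437 and 275 CPM in the double mutant and at 305, 234 and 291 CPM in *pals-22(pig26)*. Replicate 2 of the double mutant was high in *rab-3* as it was in TagRFP. The ratio of TagRFP to *rab-3* mRNA, a measure added after the data were seen, was 124, 140 and 139 in the double mutant and 147, 160 and 145 in *pals-22(pig26)*. It averaged 189 (SD 12.5) in *vsra-1(tm1637)* and 198 (SD 60.8) in wild type, whose libraries spread widely. The 12 neuron markers had a median log2FC of −0.01, with 0 called by edgeR or DESeq2, and the median was −0.21 without double-mutant replicate 2. In whole animals, fewer cells of a type and less RNA per cell cannot be told apart.

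In the fit of all genotypes 0 IPR genes were called by edgeR or DESeq2, and their levels lay far above wild type both in the double mutant and in *pals-22(pig26)*. The *pals* genes other than *pals-22*, a family of proteins of mostly unknown biochemical function that includes many IPR genes, summed to 2765, 5639 and 3237 CPM in the double mutant and to 3969.9, 3390.4 and 5186 CPM in *pals-22(pig26)*. The ranges overlap, and the sum in wild type was 170.4 to 250.1 CPM. All 37 members were tested, 7 with a positive and 30 with a negative log2FC, with a median of −0.16 beside −0.0023 over all genes. Single libraries moved this balance. There were 16 positive values without double-mutant replicate 1, double-mutant replicate 3 or *pals-22(pig26)* replicate 3 (medians −0.12, −0.03 and −0.01), and 2 without double-mutant replicate 2 or *pals-22(pig26)* replicate 2 (medians −0.44 and −0.26). For 6 members the double-mutant libraries all lay below *pals-22(pig26)*, beside 5.31% of all genes. 0 of the 37 had an unadjusted p under 0.05 in the fit of all genotypes, and 4 of 36 had one, all lower, when the 6 libraries were fitted alone, a fit in which 6.14% of all genes passed and 1.93% passed as lower.

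*pals-5*, a common IPR reporter gene, was at 78.8, 198 and 99.9 CPM in the double mutant and at 114.8, 93.9 and 169 CPM in *pals-22(pig26)*. *pals-14* was at 285, 553 and 316 CPM in the double mutant and at 405, 354 and 618 CPM in *pals-22(pig26)*. Their wild-type means were 1.77 and 9.14 CPM. In both genes the highest value of the double mutant came from replicate 2, and the ranges overlap. Outside the *pals* family, 17 IPR genes had a median log2FC of −0.28, 3 positive and 14 negative, and for 5 of them all double-mutant libraries lay below *pals-22(pig26)*, beside 5.31% of all genes. Leaving out each of the 6 libraries in turn gave medians of −0.39 to −0.18 and 1 to 5 positive values. With the 6 libraries alone, 3 of the 17 were lower at an unadjusted p under 0.05, beside 1.93% of all genes. *eol-1*, which encodes a decapping exonuclease-like protein, was at 485, 475 and 347 CPM in the double mutant and at 506, 592 and 558 CPM in *pals-22(pig26)*. *cul-6*, the cullin of an IPR ubiquitin ligase, was at 35.6, 32.9 and 30.6 CPM in the double mutant and at 35.3, 42.9 and 28.6 CPM in *pals-22(pig26)*. *eol-1* did not overlap between the genotypes and *cul-6* did. *fbxa-75*, an F-box gene, had the lowest log2FC of the list, −0.86, with 98.8, 128 and 87.7 CPM in the double mutant and 158.4, 187 and 226 CPM in *pals-22(pig26)* and no overlap. DESeq2 called *fbxa-75* when the 6 libraries were fitted alone, the 1 call among the 17 in the alternatives run.

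**Figure D3:**
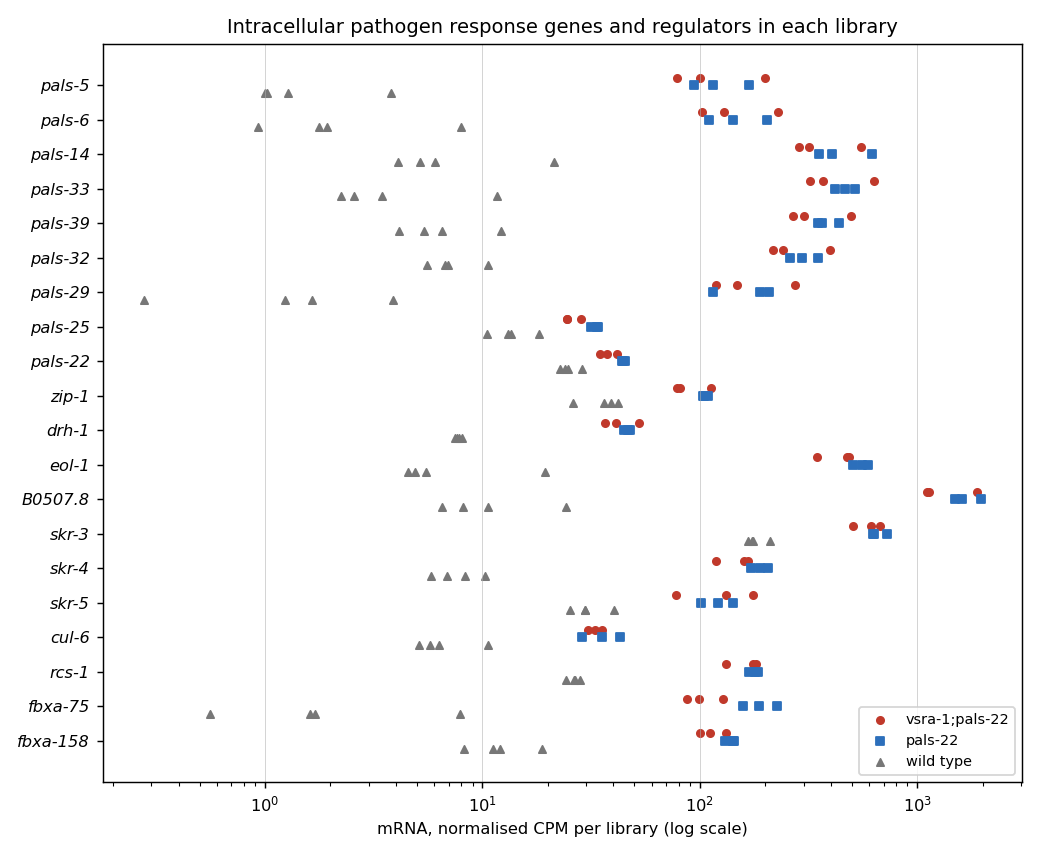
Levels of IPR genes and their regulators (normalised CPM, log axis) with 1 point per library, for *vsra-1;pals-22* above, *pals-22* in the middle and wild type below in each row. For *pals-14* the double mutant spans 285 to 553 CPM and *pals-22(pig26)* 354 to 618 CPM, both far to the right of wild type.

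When the 6 libraries were fitted alone, the 95% interval of the log2FC lay within −1 and 1 for 24 of the 36 *pals* genes tested and for 14 of the 17 other IPR genes. In the fit of all genotypes it did so for 7 of 37 and 3 of 17. There the median standard errors were 0.63 and 0.65, against 0.31 and 0.19 with the 6 libraries alone. That fit includes *vsra-1(tm1637)*, where the *pals* sum had a median of 197 CPM and reached 653 CPM in 1 library. The part of that library in the standard errors was not tested. The regulators were measured more tightly. *zip-1* was at 78.4, 112 and 81.3 CPM in the double mutant and at 103, 105 and 108 CPM in *pals-22(pig26)* (log2FC −0.22, 95% interval −0.71 to 0.28). *pals-25* was at 24.4, 28.4 and 24.5 CPM in the double mutant and at 33.9, 33.5 and 31.7 CPM in *pals-22(pig26)* (log2FC −0.36, 95% interval −0.90 to 0.19), with no overlap. *drh-1*, the RIG-I homolog of the antiviral Dicer complex, was at 36.6, 52.2 and 40.9 CPM in the double mutant and at 44.9, 47.4 and 46.5 CPM in *pals-22(pig26)*. The 7 regulators had a median log2FC of −0.12 (−0.31 to −0.02 when 1 library was left out), and all 7 intervals lay within −1 and 1.

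edgeR called 0 Argonaute genes, and DESeq2 called *vsra-1* alone. Of 20 listed, 16 were tested, with a median log2FC of 0.01, 8 positive and 8 negative, and of 0.16 with 13 positive without double-mutant replicate 2. *vsra-1* itself was the highest and *csr-1* the lowest. *csr-1* was at 20.4, 21.3 and 16.4 CPM in the double mutant and at 20.1, 22.7 and 26.8 CPM in *pals-22(pig26)* (log2FC −0.26, 95% interval −0.70 to 0.18). *sago-2*, a secondary Argonaute of antiviral RNAi, was at 40.1, 25.7 and 33.7 CPM in the double mutant and at 30.3, 29.9 and 36.3 CPM in *pals-22(pig26)* (log2FC 0.04). Wild type held 2.11, 3.30, 1.67 and 8.23 CPM of *sago-2*, which is lower than in every library of the double mutant and of *pals-22(pig26)*. The RNAi machinery (Dicer partners, RNA-dependent RNA polymerases, Mutator and systemic RNAi genes) counted 39 genes, all tested, with a median of −0.03 (−0.09 to 0.07 when 1 library was left out), 0 called by either tool and 36 intervals within −1 and 1. Its lowest member was *sid-2*, which encodes an intestinal receptor for ingested double-stranded RNA, at a log2FC of −0.53. The ERGO-1 class siRNA targets, genes silenced by an endogenous siRNA pathway that starts with RRF-3, had a median of −0.03 over 8 of 9 tested (−0.25 to 0.17 when 1 library was left out), with 0 called by either tool.

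The interaction over all genes asked where *vsra-1(tm1637)* acted differently with *pals-22(pig26)* than without it. Again *srw-85* alone of 16724 genes was called (0.00598%), and 1070 genes had an unadjusted p under 0.05 (6.4%). DESeq2 called 56 genes for the interaction (0.335%). After *srw-85*, the lowest adjusted p belonged to F40D4.13, at 0.432 in edgeR's test. F40D4.13 was at 8.86, 5.205 and 7.23 CPM in the double mutant and at 1.32, 1.27 and 1.70 CPM in *pals-22(pig26)*, with means of 2.01 CPM in *vsra-1(tm1637)* and 3.45 CPM in wild type. Next were W02D9.6 (interaction 3.37), the C-type lectin gene *clec-233* (−1.65), the importin gene *imb-3* (1.2951) and the RNA polymerase subunit gene *rpb-5* (−1.49). *fbxa-85* (1.99), the Patched homolog *ptc-1* (0.82), *hpo-27* (0.93) and *apc-17*, a subunit of the anaphase-promoting complex (1.65), made up the remainder of the first 10. These 8 did not pass in edgeR, each with an adjusted p of 0.687. DESeq2 called all 8 and F40D4.13 for the interaction, with adjusted p of 7.12e-05 for F40D4.13, 7.77e-05 for *clec-233* and up to 0.0184 for *apc-17*. With the replicate block F40D4.13 also passed in edgeR (adjusted p = 0.0996).

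Of the 51 genes called by DESeq2, 40 did not overlap between the genotypes, 30 higher and 10 lower in the double mutant, beside 5.8% and 5.31% of all genes, and 31 of these averaged at least 5 CPM. Being called favours such separation, so the non-overlap is no separate evidence. C01B4.8 is counted again in a second entry with the same values, which shares all 1407 of its 31-base stretches. 16 of the 51 were at 0 in at least 1 of the 6 libraries, and 11 had a fitted log2FC over 10 in size. The genes described here were chosen after their values were seen, from those that do not overlap. *spp-20*, a gene of the saposin-like (amoebapore-related) family, was at 140.1, 65.1 and 47.1 CPM in the double mutant and at 24.8, 21.8 and 25.996 CPM in *pals-22(pig26)* (DESeq2 adjusted p = 0.000681, edgeR adjusted p = 0.735). *lec-7*, a galectin gene, was at 28.1, 23.04 and 17.4 CPM in the double mutant and at 11.8, 10.8 and 8.29 CPM in *pals-22(pig26)*. *pph-7*, a predicted protein phosphatase gene, was at 10.199, 10.8 and 5.42 CPM in the double mutant and at 1.69, 2.16 and 3.96 CPM in *pals-22(pig26)*. Both genes were higher in 3 of 3 double-mutant libraries than in any *pals-22(pig26)* library, and for both DESeq2 called the difference (adjusted p = 0.0329 and 0.0329) and edgeR did not (adjusted p = 0.912 each).

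Among the higher DESeq2 calls, several had their largest value in replicate 1 of the double mutant. *nspe-7*, of a nematode-specific peptide family, was at 2102, 1044 and 587 CPM in the double mutant and at 297, 202 and 281 CPM in *pals-22(pig26)*. Y38E10A.14 was at 621, 465 and 269.7 CPM in the double mutant and at 149.9, 133 and 124 CPM in *pals-22(pig26)*. W02D9.6 was at 34.1, 19.5 and 13.4 CPM in the double mutant and at 2.45, 4.83 and 3.35 CPM in *pals-22(pig26)*. In all 3 genes replicate 1, the library with the high yolk and sperm protein levels, was the highest of the 6. C38D9.2 was more even, at 97.8, 78.1 and 92.5 CPM in the double mutant and at 34.9, 29.03 and 27.8 CPM in *pals-22(pig26)*. *rnh-1.3*, an RNase H gene on chromosome I at 31.5 kb from *vsra-1*, was at 5.85, 9.299 and 9.96 CPM in the double mutant and at 1.69, 2.54 and 2.01 CPM in *pals-22(pig26)* (DESeq2 adjusted p = 0.00126). Within 200 kb of *vsra-1*, 92 other genes were tested, 0 were called by edgeR and 4 had an unadjusted p under 0.05 (4.35%).

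Lower DESeq2 calls included *rpb-5*, which encodes a shared subunit of the nuclear RNA polymerases, and *sacy-1*, which encodes a DEAD-box helicase. Their annotated ends lie 119 bp apart on the same strand of chromosome I. *rpb-5* was at 65.4, 56.1 and 74.3 CPM in the double mutant and at 129, 148 and 88.0 CPM in *pals-22(pig26)*. *sacy-1* was at 26.6, 23.7 and 30.3 CPM in the double mutant and at 48.6, 53.6 and 43.8 CPM in *pals-22(pig26)*. Their *vsra-1(tm1637)* means, 84.998 and 25.7 CPM, and wild-type means, 56.4 and 20.8 CPM, were on the double-mutant side of *pals-22(pig26)*. T22F3.11 was at 10.5, 14.2 and 19.1 CPM in the double mutant and at 46.2, 166 and 309 CPM in *pals-22(pig26)*, and C23G10.11 was at 14.2, 13.3 and 16.2 CPM in the double mutant and at 46.9, 141 and 298 CPM in *pals-22(pig26)*. Both were low in every double-mutant library and spread widely over the *pals-22(pig26)* libraries, and they averaged 431 and 408 CPM in wild type.

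In gene families and tissue marker lists edgeR called 0 members outside *srw*. DESeq2 called 3 nematode-specific peptide genes, 2 *srlf* genes, *spp-20* and *clec-233*. Most medians were near 0, and for 20 of 40 lists the median changed sign when 1 of the 6 libraries was left out. Ribosomal protein genes had a median log2FC of −0.16 over 77 tested, 7 positive and 70 negative, with 75 intervals within −1 and 1. Proteasome genes had a median of 0.11 over 33, 31 positive and 2 negative, with 32 intervals within −1 and 1. Of the proteasome genes 7 lay all above *pals-22(pig26)* and 1 all below, beside 5.8% and 5.31% of all genes. When 1 library was left out, 2 to 28 ribosomal protein and 23 to 31 proteasome genes were positive. Medians were 0.23 for 8 body wall muscle markers, −0.04 for 9 intestine markers, −0.05 for 7 hypodermis markers and 0.01 for 9 germ line markers. Without double-mutant replicate 2 the muscle median was −0.05 and the germ line median 0.33, and without double-mutant replicate 1 the muscle median was 0.47. The 7 pharynx markers had a median of 0.74, and their sum was 298, 347 and 332 CPM in the double mutant and 239, 204 and 198 CPM in *pals-22(pig26)*. 5 of the 7 lay all above *pals-22(pig26)*, beside 5.8% of all genes, and 3 had an unadjusted p under 0.05, beside 2.97% of all genes in that direction. The 3 became 0 without double-mutant replicate 2, without any 1 *pals-22(pig26)* library or with scaling by library totals alone, and 5 with the 6 libraries alone, beside 4.21% of all genes, while the median stayed between 0.64 and 0.89 when 1 library was left out. *myo-2*, a pharyngeal muscle myosin gene, was at 23.4, 52.2 and 63.4 CPM in the double mutant and at 22.3, 17.8 and 17.9 CPM in *pals-22(pig26)*, and the transcription factor gene *pha-4* was at 36.5, 31.4 and 50.02 CPM in the double mutant and at 44.5, 39.9 and 36.6 CPM in *pals-22(pig26)*. *myo-2* did not overlap between the genotypes and *pha-4* did.

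The medians of the *col* collagen and the nematode-specific peptide genes depended on replicate 1 of the double mutant. For 128 *col* genes, which encode cuticle components, the median log2FC was 0.81, with 105 positive and 42 at an unadjusted p under 0.05, all higher, beside 2.97% of all genes. The sum over all 156 *col* genes, tested or not, was 15453, 23119 and 18286 CPM in the double mutant and 15971, 10032 and 11770.0 CPM in *pals-22(pig26)*. Without double-mutant replicate 1 the median was 0.17 and the counts were 10 higher and 3 lower, and without *pals-22(pig26)* replicates 2 or 3 they were 23 and 19 higher. For 46 nematode-specific peptide genes, a list added after the data were seen, the median was 1.21, and it was 0.32 without that replicate. The 6 *vit* genes had a median of 3.44 with it and 0.60 without it, and over all genes the counts at an unadjusted p under 0.05 without it were 335 higher and 120 lower. F-box B genes (*fbxb*) rested on another library. Their median was 0.67 over 93 tested, −0.58 without double-mutant replicate 3 and 0.28 without *pals-22(pig26)* replicate 3. The 5 furrow collagens tested, whose mRNAs cycle with the molts, had a median of −0.82 (−1.24 to −0.40 when 1 library was left out). All 6 furrow collagens, tested or not, summed to 201, 76.8 and 295 CPM in the double mutant and to 399.9, 421 and 209 CPM in *pals-22(pig26)*.

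edgeR called 0 members of the remaining lists, of which DESeq2 called *clec-233*, *spp-20*, *srlf-12* and *srlf-37*. Medians were −0.01 for 145 F-box A (*fbxa*) genes, −0.11 for 64 *math* and *bath* genes, −0.01 for 107 C-type lectin genes and −0.06 for 211 nuclear hormone receptor genes. Detoxification genes had medians of −0.06 (65 cytochrome P450), 0.07 (56 UDP-glucuronosyltransferase) and 0.35 (42 glutathione S-transferase), the last being −0.05 with 15 positive without double-mutant replicate 2. The 129 neuropeptide genes tested had a median of 0.34, with 14 at an unadjusted p under 0.05, all higher, beside 2.97% of all genes. The 14 became 8 without double-mutant replicate 1 or 2 or *pals-22(pig26)* replicate 3, and 28 without double-mutant replicate 3, with medians of 0.18 to 0.51. With the 6 libraries alone 24 were higher and 5 lower, beside 4.21% and 1.93% of all genes. Medians were 0.41 for 67 histone genes, 0.25 for 9 oocyte and embryo markers, −0.32 for 36 *srh* chemoreceptor genes, −0.03 for 16 fasting and L1 arrest genes and −0.39 for 14 molting genes. When 1 library was left out, these became 0.26 to 0.60 for histone, −0.23 to 0.63 for oocyte and embryo, −0.18 to 0.09 for *srh*, −0.06 to 0.11 for fasting and −0.85 to −0.05 for molting genes. Genes were filtered anew in each such fit, so the members tested can differ. For *srh* they were 42 to 48 rather than 36. The oocyte and embryo median was negative without double-mutant replicate 1. Of the histone genes, 8 were higher and 0 lower at an unadjusted p under 0.05 in edgeR, beside 2.97% and 0.861% of all genes. When 1 library was left out, 1 to 11 histone genes were higher and 0 to 1 lower. The 6 *hsp-16* small heat shock genes, of which 5 were tested, summed to 4346, 4882 and 4809 CPM in the double mutant and to 2467, 4909 and 1218 CPM in *pals-22(pig26)*, and these ranges overlap. The saposin-like *spp* genes (0.28, 28 tested) and the *srlf* genes (0.13, 21 tested) were listed after the data were seen, and without double-mutant replicate 1 their medians were −0.0021 and 0.0039.

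**Figure D4:**
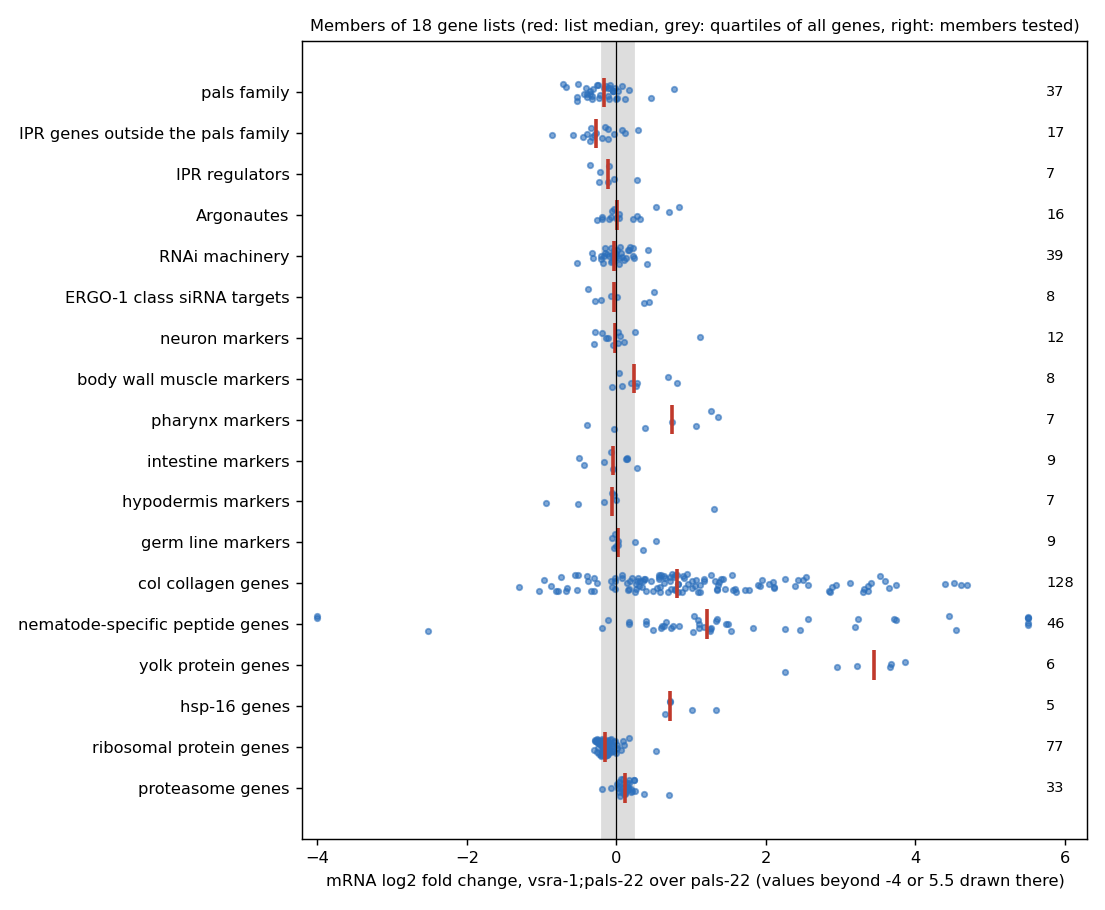
Each row is a gene list, each blue point the log2FC of 1 tested member, *vsra-1;pals-22* over *pals-22*, and the red bar the list median. The grey band holds the values between the quartiles of all genes, from −0.19 to 0.24, and values beyond −4 or 5.5 are drawn at that limit. Most medians lie near 0, and the highest of the 18 drawn are those of the yolk protein (3.44), nematode-specific peptide (1.21) and *col* (0.81) genes.

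A broader list was taken from other libraries. In N2, the laboratory wild type without the transgene, 1526 genes were called (edgeR adjusted p under 0.1) and more than 4-fold higher in *pals-22(pig26)* than in wild type, and 835 of these were tested here. The summed level of all 1526, tested or not, was 48178, 54846 and 34352 CPM in the double mutant and 50287, 52950.1 and 67878 CPM in *pals-22(pig26)*. Wild type with *otIs356* held 5392 to 6522 CPM. The sums of both genotypes with *pals-22(pig26)* lay far above wild type. The median log2FC of the tested genes was −0.04 (quartiles −0.37 and 0.57), with 0 called by edgeR and 2, both higher, by DESeq2. The double mutant lay all above *pals-22(pig26)* for 57 and all below for 81, beside 5.8% and 5.31% of all genes. At an unadjusted p under 0.05 in edgeR, 56 were higher and 12 lower, beside 2.97% and 0.861% of all genes. These counts were 17 to 81 and 2 to 22 when 1 library was left out. With the 6 libraries alone 44 of 741 were higher and 45 lower, beside 4.21% and 1.93%. The 122 tested genes that were more than 4-fold lower in N2 had a median of 0.13 (−0.08 without double-mutant replicate 2), with 0 called by edgeR and 1, higher, by DESeq2.

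More genes were called for sRNA than for mRNA. Of 8042 genes tested for antisense sRNA in the same genotypes, 807 were called (10%), 538 higher (6.69%) and 269 lower (3.34%) in the double mutant. Over the 7190 genes tested for both, Spearman's rho between the sRNA and mRNA log2FC was −0.02, a description across genes, which are not independent replicates. The 468 genes with called higher sRNA had a median mRNA log2FC of −0.02, with 1.92% at an unadjusted p under 0.05. The 225 genes with called lower sRNA had a median of 0.02, with 5.78% at an unadjusted p under 0.05, beside 1.97% of all 7190 genes. *srw-85* was the 1 gene called for both.

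22 genes had called sRNA together with an mRNA difference at an unadjusted p under 0.05. Among the 468 genes with higher sRNA, mRNA was higher in 6 and lower in 3. Among the 225 genes with lower sRNA, mRNA was higher in 9 and lower in 4. Of all 7190 genes tested for both, 103 were higher and 39 lower in mRNA at that threshold. For F40D4.13, sRNA was at 49.9, 37.5 and 40.9 CPM in the double mutant and at 146, 145 and 148 CPM in *pals-22(pig26)*, opposite to its mRNA. For *rnh-1.3*, sRNA was at 61.5, 49.0 and 65.4 CPM in the double mutant and at 333, 306 and 358 CPM in *pals-22(pig26)*, again opposite to its mRNA. For C38D9.2, sRNA was at 87.7, 69.9 and 75.5 CPM in the double mutant and at 235.06, 240.3 and 222 CPM in *pals-22(pig26)*. The mRNA differences of these 3 genes did not pass edgeR's adjusted threshold. *rpb-5* and *sacy-1*, like *srw-85*, were lower in both kinds of RNA, with sRNA log2FC of −0.92 and −0.51 (edgeR adjusted p = 0.00158 and 0.00862).

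**Figure D5:**
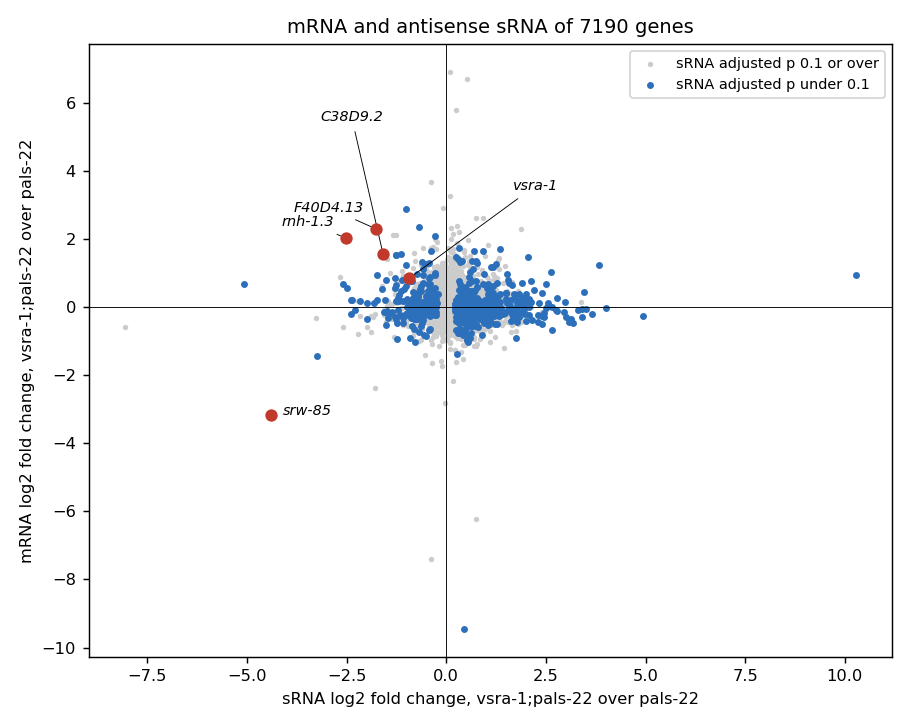
For each of 7190 genes, the log2FC of antisense sRNA (x axis) against that of mRNA (y axis), both *vsra-1;pals-22* over *pals-22*, with genes called for sRNA in blue and named genes in red. The blue points spread widely along the sRNA axis and stay close to 0 on the mRNA axis, and *srw-85* lies low on both.

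The median standard error of the mRNA log2FC was 0.36 over all genes. The 95% interval lay within −1 and 1 for 8109 of 16724 genes (48.5%), and for 73.8% of those with a mean of 10 to 100 CPM. For the other genes, the interval also holds changes of more than 2-fold. A 0 in the shallowest of the 6 libraries leaves room for up to 3 counts, or 0.548 RPM, if 1 deposited unit is taken as 1 read. Because the estimates were divided by transcript length, 1 read is more than 1 unit in short transcripts and less in long ones. The floor is therefore higher for short transcripts and lower for long ones. Reads were not marked by molecule, so such a floor covers counting error only.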

How the data were processed

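Data handling covered the 14 *otIs356* mRNA libraries and the 14 matching sRNA libraries. For mRNA, the authors pseudo-aligned reads with kallisto through RNAlysis and deposited estimated counts, scaled per gene (84.8% of the values carry decimals). After multiplication by transcript length less 200 bases, 55.5% to 63.8% of the low values per library were whole multiples of 1 read. Without it 14.7% to 17.3% were, beside 10% by chance, so the deposited estimates are already divided by length. They were rounded before testing. For sRNA, the authors trimmed reads with CutAdapt, aligned reads of 15 to 30 nt to ce11 with ShortStack and deposited raw whole counts from featureCounts. As to strand, in 30 pairs of a miRNA and a gene on the opposite strand, the miRNAs held 9.97 RPM and the genes opposite them 346757, so the counts are those of antisense reads. Versions of these tools and the kallisto index are not given in the sources used here. Both tables held 0 columns of other samples. Positions and symbols are from Ensembl release 115 (WBcel235), which lacks 171 entries of the mRNA table.

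Libraries were grouped by the labels' titles, and 0 pairs of libraries were identical. Each table was fitted as a whole in edgeR 4.0.16 (R 4.3.3), with 1 group per genotype, TMM scaling, the quasi-likelihood test and Benjamini-Hochberg adjustment over all genes tested, two-sided, at an adjusted p under 0.1. mRNA entries passed filterByExpr (minimum count 10, minimum total 15) and sRNA genes exceeded 5 RPM in at least 1 library. mRNA totals were 5479325 to 33903478 and sRNA totals 7950015 to 21594026, and precision is given as 95% intervals of the fit. TagRFP was also compared by exact permutation of library labels. Alternatives were DESeq2 1.42.0, limma 3.58.1, other scalings and filters, fits of the 6 libraries alone, and leaving out each library. The edgeR fit was also run on simulated counts with 200 genes changed in the double mutant, where all 4 genotypes otherwise shared their means. That setting differs from these data, so it does not show which changes could be found here. The labels do not say whether the replicate numbers of the 2 genotypes pair the libraries. Same-numbered deviations correlated at 0.0033, −0.15 and −0.19. These lie within the −0.19 to 0.29 of other-numbered ones and cannot decide it.

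The named genes are *vsra-1*, *pals-22* and TagRFP, up to 12 called, non-overlapping genes per direction with a mean of at least 5 CPM, the 10 lowest adjusted p of the interaction, called list members, and *csr-1*, *sago-2*, *zip-1* and *rab-3*. Others were chosen after their values were seen. The comparison and its lists were chosen with earlier results of these data known. 3 lists (nematode-specific peptide, saposin-like and *srlf* genes) and 2 lists from the N2 mRNA table, whose values the authors deposited as estimated counts of the same kind, were added after the data were seen. The N2 sRNA table was not used.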

Additional observations from a re-analysis of the deposited data

Results flagged for a closer look

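1 result stood out because the effect of *vsra-1(tm1637)* differed with and without *pals-22(pig26)*. *srw-85* mRNA had an interaction of −7.58 on the log2 scale (edgeR adjusted p = 7.06e-07). It averaged 13.5 CPM in the double mutant and 122 CPM in *pals-22(pig26)*, and 145 CPM in *vsra-1(tm1637)* and 6.88 CPM in wild type. All 3 double-mutant libraries lay below *pals-22(pig26)*, and all 4 *vsra-1(tm1637)* libraries lay above wild type.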

How the results depend on the processing

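*srw-85* kept its direction under all 35 alternatives and its call in 31. Its edgeR adjusted p exceeded 0.1, so that the call was lost, only in fits of the 6 libraries alone. Counts of mRNA calls for the double mutant over *pals-22(pig26)*, 1 as reported, were 51 with DESeq2 (36 higher, 15 lower). With the 6 libraries alone, an alternative of which most fits were added after seeing the data, they were 175 with DESeq2 (33 of them lower, 36 shared with the 51), 3 with limma-trend (1 higher, 2 lower) and 0 to 3 in edgeR when 1 library was left out (0 without *pals-22(pig26)* replicate 2 and double-mutant replicates 1 and 3, 3 without *pals-22(pig26)* replicate 1, 2 without double-mutant replicate 2). In the fit of all genotypes they were 1 to 2 without each library in turn, 2 being without *vsra-1(tm1637)* replicate 4. The interaction count, 1 as reported, was 56 with DESeq2 (37 higher, 19 lower) and 1 to 2 without each library, 2 being without *vsra-1(tm1637)* replicate 4 or double-mutant replicate 2. The count for *vsra-1(tm1637)* over wild type, 1 as reported, was 911 with DESeq2 and 1 to 81 without each library, 3 being without *vsra-1(tm1637)* replicate 4 and 81 (4 higher, 77 lower) without double-mutant replicate 1. The replicate block gave 3 calls (2 higher, 1 lower), 0 with the 6 libraries alone, and 2 for the interaction. Whether same numbers pair samples is not given in the labels. Same-numbered deviations correlated at 0.0033, −0.15 and −0.19, within the −0.19 to 0.29 of other-numbered ones, so they cannot decide it. The sRNA count, 807 as reported, was 561 to 886 without each of the 6 libraries.

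TagRFP mRNA (0.10) was −0.20 to 0.26 without each library, and −0.19 without double-mutant replicate 2 in the 6 libraries alone. TagRFP sRNA (−0.21) was −0.71 to −0.0068 without each library. *sago-2* (0.04) was −0.12 to 0.19 without each library, negative without *pals-22(pig26)* replicates 1 (−0.0018) and 2 (−0.013) and double-mutant replicate 1, and −0.020, −0.0015 and −0.11 in the 6 libraries alone. *rab-3* was −0.012 to 0.36. For all of these the cause was not tested. Scaling moved the median of all genes by at most 0.03 on the log2 scale. The median standard error over all genes was 0.36 in the fit of all genotypes and 0.26 with the 6 libraries alone, and what sets it was not tested.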
